A study of Triticum aestivum with 15 samples.

Results

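Transcripts of the imbibing wheat seed with their highest level at 12 h are described here. The 200 probe sets were chosen by their own values. For each probe set the mean of log2(intensity + 16) was taken over the 3 arrays of each stage, and the score was the 12 HAI mean minus the highest mean among the other 4 stages (HAI, hours after imbibition). The 200 highest scores of 61115 probe sets were kept, after 175 control probe sets had been left out. The high level at 12 HAI is therefore how the probe sets were selected, so it is given as a description and no test is attached to it.

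The seeds were whole grains of bread wheat (Triticum aestivum L.), cultivar Jimai 20, taken dry (0 HAI) and at 12, 24, 36 and 48 HAI, with 3 biological replicates per stage and 15 Affymetrix Wheat Genome Arrays in all. All imbibed seeds were kept under sterile pure water for the opening 12 h and were then moved to dishes with a moderate amount of water. The 12 HAI stage thus closed the submerged period, and time after imbibition and submersion cannot be told apart. The authors also describe imbibition in the dark and incubation at room temperature after 12 HAI. Any change of light or temperature at that point cannot be told apart from time either. No other genotype or treatment was included. The seeds held embryo, aleurone and starchy endosperm together, so fewer cells of a type and less RNA per cell cannot be told apart either.

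A mature dry seed stores messenger RNA made during grain filling. When water enters, respiration and transcription restart within the living embryo and aleurone, part of the stored messages is broken down, and messages are made that serve the early hours only. Oxygen enters a wet grain slowly, and genes of the low-oxygen response, such as the hemoglobins of plant cells outside root nodules, are known to be active in germinating cereal grains.

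The table held few gene names. A gene symbol or description was paired with 1331 of the 61115 probe sets and with 5 of the 200, which carried 4 different symbols. The other 195 are given by probe set identifier. An identifier such as Ta.4969.3.S1_x_at names a cluster of wheat transcript sequences (Ta.4969), a sub-cluster (Ta.4969.3) and the orientation of the sequence. The ending _x_at marks probes that may also bind other transcripts, _s_at marks probes shared by several transcripts, and _a_at marks transcripts thought to come from the same gene. Intensities of different probe sets depend on their probes and are not set against each other as transcript levels.

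Scores ran between 1.97 for the 200th probe set and 4.79 for the leading one, with a median of 2.49 on the log2 scale. A score over 4 was found for 13 probe sets, a score over 3 for 49, and a score under 2.5 for 101. The median stage mean of the 200 was 231 in the dry seed, 2780 after 12 h, 355 after 24 h, 234 after 36 h, and 238 after 48 h. Over all 61115 probe sets it was 89.8, 66.4, 65.5, 67.0 and 66.7 at the same stages. These medians rest on arrays scaled to the same trimmed mean, and under the other scalings tried the median change of all probe sets at 24 against 0 HAI was 0.08 to 0.84 in log2, where it is -0.30 as deposited. For each of the 200 probe sets the lowest of the 3 arrays at 12 HAI lay above all 12 other arrays, and for 199 of them it was over 2 times the highest of the others. Of all probe sets, 3428 had their 3 arrays at 12 HAI above the other 12.

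**Figure D1:**
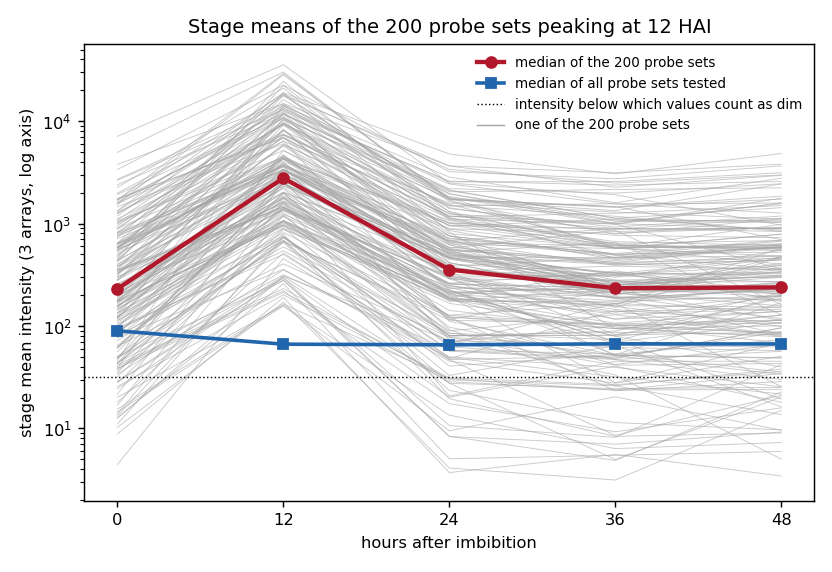
Stage mean intensity (vertical, log axis, mean of 3 arrays) against hours after imbibition for each of the 200 probe sets (grey lines), their median (red circles) and the median of all 61115 probe sets (blue squares). The red median is 2780 at 12 HAI and between 231 and 355 at the other stages. The dotted line is at an intensity of 32.

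The score itself keeps every member low at 24 HAI, so the following shares are a description. At 24 HAI the median member had 13.3% of its 12 HAI mean, with a range of 1.29% to 25.6%. At 48 HAI the median was 9.61%, and in the dry seed it had been 10.2%. The next highest mean came from 24 HAI in 82 members, from the dry seed in 63, from 48 HAI in 43 and from 36 HAI in 12. The lowest mean was that of the dry seed in 79 members, of 36 HAI in 58, of 48 HAI in 51 and of 24 HAI in 12. The members thus differed in which other stage had the next highest or the lowest mean. This ranking was not tested, and 56 members passed the threshold in none of the comparisons given below. The matching share of all probe sets is not given, so this count is not read as a trait of the members.

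The 5 highest scores all belonged to probe sets with no gene name. Ta.4969.3.S1_x_at, with the top score of 4.79, had 293, 341 and 217 in the dry seed, 8914, 8489 and 7652 after 12 h, 254, 328 and 280 after 24 h, 98.5, 125 and 126 after 36 h, and 146, 107 and 163 after 48 h. Its 12 HAI mean was 29.4 times its dry seed mean and 29.1 times its 24 HAI mean. The 12 HAI arrays stood apart from the others, whereas the arrays at 0 and 24 HAI overlapped.

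Ta.7007.1.S1_at (score 4.73) had 19.8, 92.1 and 33.3 in the dry seed, 2326, 2587 and 2630 after 12 h, 96.7, 29.8 and 150 after 24 h, 50.3, 14.99 and 13.0 after 36 h, and 24.1, 77.1 and 12.7 after 48 h. Outside 12 HAI its arrays were low and scattered within each stage. Ta.19858.1.A1_at (score 4.73) had 41.6, 3.35 and 5.61 in the dry seed, 1757, 1629 and 1434 after 12 h, 37.8, 8.85 and 15.4 after 24 h, 26.5, 62.3 and 47.0 after 36 h, and 52.1, 37.9 and 45.7 after 48 h. Its means at 0 and 24 HAI were below 32, an intensity under which values were treated as dim, and on that bound the 12 HAI level was at least 45.8-fold higher than at 0 HAI and at least 47.3-fold higher than at 24 HAI.

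TaAffx.56982.2.S1_at (score 4.60) had 157, 74.3 and 141 in the dry seed, 9482, 13123 and 13089 after 12 h, 336, 378 and 530 after 24 h, 158, 225 and 211 after 36 h, and 496, 390 and 532 after 48 h. Here the 24, 36 and 48 HAI arrays all lay above the dry seed arrays. The lowest array at 36 HAI (157.5) was barely above the highest dry seed array (156.8). Ta.24155.1.S1_x_at (score 4.55) had 84.9, 162 and 152 in the dry seed, 8413, 8095 and 8255 after 12 h, 381, 312 and 319 after 24 h, 34.3, 124 and 90.7 after 36 h, and 178, 72.2 and 135 after 48 h. It was above its dry seed arrays at 24 HAI and overlapped them at 48 HAI.

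Of the named members, Ta.5610.1.S1_at (LOC543085, rank 105, score 2.45) was the only one with a description, taken from a rice gene that its sequence matched: non-symbiotic hemoglobin 2. In rice and barley such hemoglobins bind oxygen tightly, are induced when oxygen is short and remove nitric oxide. The probe set had 517, 507 and 687 in the dry seed, 13475, 13677 and 13066 after 12 h, 2400.25, 2532 and 2370.4 after 24 h, 1589, 1524 and 1539 after 36 h, and 1149.7, 1295 and 1352 after 48 h. At 12 HAI it averaged 13406 ± 312 (SD, n = 3), which was 23.5 times its dry seed mean. No array of a later stage overlapped the dry seed arrays, all of the later ones being higher.

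LOC606356 was represented by a pair of members from a single sub-cluster, which share sequence and are not separate genes. Ta.28244.1.A1_x_at (rank 106, score 2.45) had 1890.1, 1415 and 1810.2 in the dry seed, 19832, 18855 and 16666 after 12 h, 3782, 3151 and 3197 after 24 h, 2508, 2860 and 2085 after 36 h, and 3738, 2677 and 2542 after 48 h. Ta.28244.1.A1_s_at (rank 131, score 2.29) had stage means of 1186, 17845, 3647, 2261 and 2951 at the stages in order. Both showed the same course, with a level after the peak that stayed above that of the dry seed. Another probe set named LOC606356, Ta.28244.2.S1_at, was no member and had a score of 1.23, with means of 161, 792, 330, 271 and 297. Ta.13195.2.S1_at, of a different cluster, scored 1.33 and was no member either.

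LOC100049023, measured by Ta.4678.2.S1_at (rank 51, score 2.98), had 293, 438 and 416 in the dry seed, 2765, 3128 and 3383 after 12 h, 280, 365 and 277 after 24 h, 167, 168 and 130 after 36 h, and 45.7, 128 and 124 after 48 h. Unlike the hemoglobin, it ended below its dry seed arrays. LOC543123, measured by Ta.25469.1.S1_at (rank 110, score 2.42), had 135, 16.2 and 116 in the dry seed, 702, 768 and 574 after 12 h, 67.8, 156 and 118 after 24 h, 105, 108 and 101 after 36 h, and 130, 96.7 and 116 after 48 h. Its arrays at all stages but 12 HAI overlapped. The files gave no description for these 3 symbols.

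**Figure D2:**
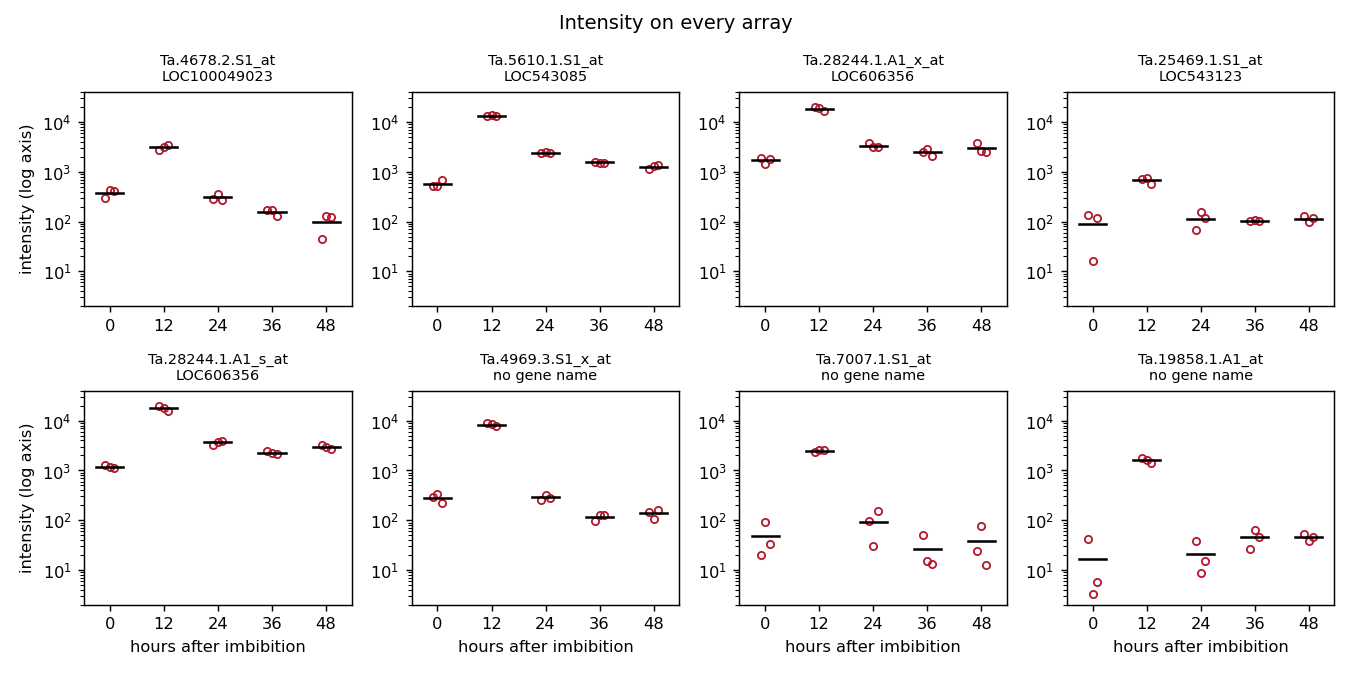
Intensity (log axis) on every array against hours after imbibition for the 5 named probe sets and the 3 highest scores. Circles are single arrays and bars are means of 3 arrays; at 12 HAI the circles lie above those of all other stages, while the spread at other stages is wide where the intensity is low, as in Ta.7007.1.S1_at.

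The tests were made on the stages other than 12 HAI, with limma and Benjamini-Hochberg adjustment over all 61115 probe sets and a threshold of 0.05. The choice of members bounds the highest of these 4 stages relative to 12 HAI, but does not order them. At 24 against 0 HAI, 76 members (38.0%) were higher, and 15.3% of all probe sets were. Lower at 24 HAI were 33 members (16.5%), and 22.3% of all probe sets. The median change was 0.36 in log2 for the members and -0.30 for all. The choice bears on this contrast with the array at large: it admitted only probe sets whose dry seed and 24 HAI levels were both well below that at 12 HAI. What this does to the shares was not tested. The shares are therefore not read as a difference between the members and other genes.

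Ta.24738.2.S1_x_at, which had the largest such change and was picked after its values were seen, had 1304, 1488 and 1404 at 24 HAI, against 19.4, 76.1 and 42.6 at 0 HAI (4.62 in log2, SE 0.25, adjusted p = 2.43e-08; SE, standard error). Its 12 HAI arrays were at 14841, 14331 and 13488. The hemoglobin had 2434 ± 86.0 at 24 HAI, against 570.2 ± 101 at 0 HAI (SD, n = 3 each; 2.08 in log2, SE 0.13, adjusted p = 7.92e-08). Among the 5 highest scores, TaAffx.56982.2.S1_at was higher at 24 than at 0 HAI by 1.65 in log2 (SE 0.27, adjusted p = 0.000308). For Ta.4969.3.S1_x_at the log2 change was 0.03 (SE 0.19, adjusted p = 0.917).

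At the other end was Ta.25231.1.A1_at, also picked after its values were seen. It had 90.3, 48.9 and 79.5 at 24 HAI, against 672, 640 and 595 at 0 HAI (-2.90 in log2, SE 0.26, adjusted p = 2.16e-06). Its 12 HAI arrays were 3511, 3967 and 3419, and at 48 HAI it was down to 4.46, 5.56 and 5.02. It was thus present in the dry seed, high at 12 HAI, and below an intensity of 32 on all 3 arrays at 48 HAI.

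At 48 against 24 HAI, 136 of the 200 members did not pass the test. Of the others, 57 members (28.5%) were lower, and 7.24% of all probe sets were, while 7 members (3.5%) were higher, and 6.52% of all probe sets. The median change was -0.41 for the members and -0.0045 for all. In each of the 3 comparisons the median SE was 0.21 for the members and 0.35 for all, so smaller changes could pass in members. Here and at 48 against 0 HAI the shares are likewise not read as a difference between the members and other genes. The hemoglobin was at 1266 ± 104 at 48 HAI, against 2434 ± 86.0 at 24 HAI (-0.94 in log2, SE 0.13, adjusted p = 0.00046). LOC100049023 was at 98.9 ± 46.1 at 48 HAI, against 307 ± 50.3 at 24 HAI (-1.58 in log2, SE 0.29, adjusted p = 0.00295). For LOC606356 the change at the pair of probe sets was -0.19 (adjusted p = 0.633) and -0.30 (adjusted p = 0.186), and for LOC543123 0.06 (adjusted p = 0.972). The count of 7 became 2 to 11 when single arrays were left out.

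Ta.16818.1.S1_at, picked after its values were seen, had the largest change upward. It had 601, 619 and 507 at 48 HAI, against 174, 142 and 241 at 24 HAI (1.58 in log2, SE 0.31, adjusted p = 0.00425), with 2712, 2609 and 2299.6 at 12 HAI. Its 48 HAI arrays all lay above those of 24 HAI.

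At 48 against 0 HAI, higher were 54 (27.0%), and 17.0% of all probe sets, and lower were 56 (28.0%), and 23.9% of all probe sets. The balance depended on the scaling. With array medians set equal 75 members were higher and 32 lower, with hybridization controls 81 and 19, and with poly-A controls 136 and 9. Of all probe sets, 22.0%, 24.2% and 39.9% were higher under these scalings, and 13.9%, 8.58% and 3.68% were lower. The array as a whole thus moved in the same direction as the members. Under the main scaling the median change was -0.0068 for the members and -0.30 for all. The hemoglobin was higher at 48 HAI (1.14 in log2, SE 0.13, adjusted p = 1.42e-05), as were both probe sets of LOC606356 (0.79, adjusted p = 0.00413, and 1.30, adjusted p = 5.39e-06), whereas LOC100049023 was lower (-1.87, SE 0.29, adjusted p = 0.000193), a call that was lost with poly-A scaling (-0.40, adjusted p = 0.286). For LOC543123 the change was 0.59 (SE 0.47, adjusted p = 0.351). The 3 comparisons share stages, and 56 members passed the threshold in none of them, a count given without its share over all probe sets.

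**Figure D3:**
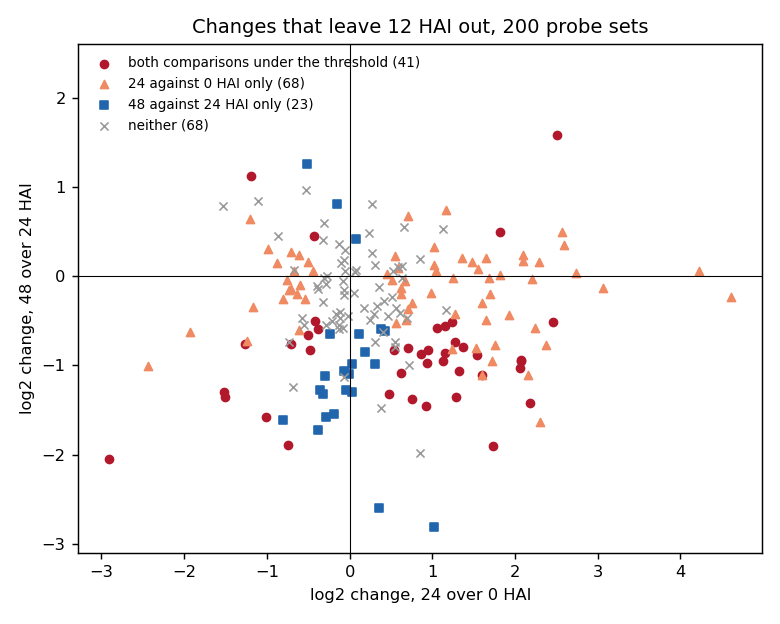
Log2 change at 24 over 0 HAI (horizontal) against log2 change at 48 over 24 HAI (vertical) for the 200 probe sets, each a point. Both changes were under the threshold in 41, the first alone in 68, the second alone in 23 and neither in 68; the 24 HAI arrays enter both axes, so the slope of the points is not read.

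Some values move with these comparisons. The scaling of the arrays moved the direction of the calls at 24 against 0 HAI. Of the members called, 69.7% were higher, and of all probe sets called 40.7%. With array medians set equal these shares were 90.6% and 63.7%. The members lower at 24 HAI then went from 33 to 9, and the share of all probe sets from 22.3% to 11.6%. The control probe sets for glucose-6-phosphate dehydrogenase had a ratio of 3' to 5' intensity, a sign of RNA length, of 9.53 in the dry seed, 12.4 after 12 h, 16.1 after 24 h, 16.5 after 36 h, and 28.6 after 48 h. The ratio for sucrose synthase took another course, with 110 in the dry seed, 57.1 after 12 h, 134 after 24 h, 95.9 after 36 h, and 80.1 after 48 h. It rests on a 5' probe set with means of 11.4, 261, 58.0, 33.9 and 31.8, dim in the dry seed and at 48 HAI. The ratio for GAPDH was 0.29, 0.22, 0.21, 0.085 and 1.07 at the same stages, that for actin 0.91, 0.41, 0.30, 3.81 and 8.50, and that for ubiquitin 0.50, 0.59, 0.66, 0.62 and 0.76. The controls thus did not share a course. The part of RNA length in the changes was not tested.

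Marker lists gave a limited check of the tissue. Of the 6 probe sets matched by words for grain storage and defence proteins, meant as endosperm markers, 5 had their highest mean in the dry seed. The other, Ta.1308.1.S1_at, had 42.6 ± 46.7 at 12 HAI and 42.0 ± 55.9 in the dry seed (SD, n = 3). The summed mean of the 6 was 32327, 17221, 11854, 7685 and 8018 at 0, 12, 24, 36 and 48 HAI. Most of this sum came from 1 probe set, Ta.355.1.S1_at, with means of 31219, 16621, 11626, 7552 and 7954. It is for a gamma-thionin homolog, which the annotation does not place in the endosperm. The sum is therefore not read as a shared course of the 6. The single LEA probe set, a marker of the dry embryo, had 42141, 17504.5, 12885, 6757 and 7693 at the same stages. The 2 starch breakdown probe sets, both for an alpha-glucan phosphorylase, went another way, with a summed mean of 1775, 892, 4857, 9756 and 5359. The 4 heat shock probe sets had a summed mean of 46912, 16472, 1885, 1203 and 789.96. No probe set was matched to green shoot markers. The part of changing tissue shares in the members' changes was not tested.

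Many members came from shared sequence clusters, which the choice had not used. The 200 probe sets lay in 145 clusters, and 34 clusters held 2 or more members, 89 members in all. Probe sets of a cluster usually share a transcript or close copies of it, such as the homoeologs of the 3 wheat genomes, so the 200 are fewer independent transcripts than their number. Probe sets of the kind _x_at made up 22.5% of the members and 11.1% of all, and those from the Ta clusters 74.0% and 51.4%. Antisense sequences made up 16.5% and 17.4%.

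Cluster Ta.13165 had 5 members of its 6 probe sets. Ta.13165.1.S1_at had 7279.7, 6991 and 7029 in the dry seed, 35616, 38088 and 32789 after 12 h, 2479, 2513 and 2459 after 24 h, 1847, 1802 and 2085 after 36 h, and 1066, 881 and 947 after 48 h. Its mean was lower at each stage after the peak and ended below the dry seed, and the other 4 members of the cluster were also lower at 48 than at 0 HAI, with log2 changes between -2.11 and -2.81. Their adjusted p lay between 1.16e-08 and 1.68e-07.

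Cluster Ta.4678, which holds LOC100049023, had all of its 4 probe sets among the members, with 12 HAI means of 3092 to 14643. All 4 were lower at 48 than at 24 HAI, with log2 changes between -1.12 and -1.58. At 24 against 0 HAI, 1 of the 4 was called. The 4 members of cluster Ta.5279 were all higher at 24 than at 0 HAI, with log2 changes between 1.55 and 2.30. The clusters described are examples, not set in advance. In this comparison the members went both ways in TaAffx.56982 (-0.32 to 1.65), Ta.23268 (-0.33 to 1.16), Ta.20649 (-0.61 to 0.41) and Ta.24155 (-0.0039 to 1.28). They kept the same sign in Ta.1422 (-0.87 to -0.08), Ta.25578 (0.17 to 1.32), Ta.6379 (0.47 to 0.93) and Ta.6544 (0.28 to 0.565).

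**Figure D4:**
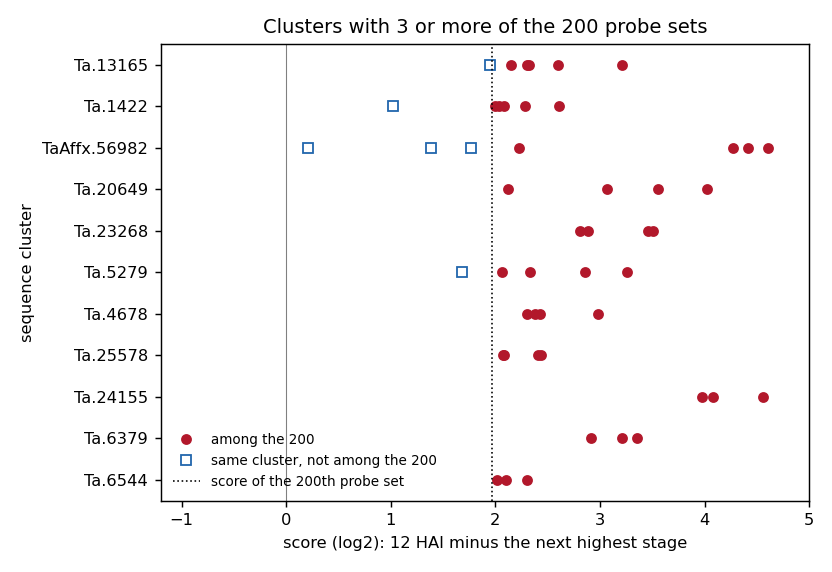
Score (log2, 12 HAI mean minus the next highest stage mean) of the probe sets in the 11 clusters with 3 or more members, a row per cluster. Filled circles are among the 200, open squares are other probe sets of the same cluster, and the dotted line is the score of the 200th probe set, 1.97.

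Clusters of more than 10 probe sets were left out of the next count. This dropped 1 cluster with members, of 113 probe sets, so its other probe sets are not counted. The shares below therefore cover the smaller clusters only. Outside the 200, 64 probe sets lay in the same cluster as a member, in 37 clusters of at most 10 probe sets. Of these, 49 (76.6%) had their highest stage mean at 12 HAI, and 18.1% of all probe sets did. Their median score was 0.98, between -0.96 and 1.96, and 32 scored over 1. Since such probe sets can share sequence with the members and were measured on the same arrays, this count is a description of the clusters and not of separate genes.

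Of the members, 9 were below an intensity of 32 at all 4 other stages, so only a bound on their fold can be given. The highest ranked, TaAffx.37378.1.S1_at, averaged 259 at 12 HAI, at least 8.03-fold higher than at every other stage. Members with such low values in the dry seed numbered 20, and 31 had a mean over 1000 there.

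The limit of 200 fell in a dense part of the ranking. The last members were Ta.24635.1.S1_at (score 1.9703), Ta.6547.2.S1_at (1.9669) and Ta.10349.1.S1_a_at (1.9653). The next probe sets, outside the limit, were Ta.8861.1.A1_at (1.9652), TaAffx.59384.1.S1_at (1.9582) and TaAffx.4939.1.S1_at (1.958). The same calculation for a peak at each other stage gave a 200th score of 2.20 for the dry seed, 0.68 for 24 HAI, 1.42 for 36 HAI and 1.24 for 48 HAI. Scores over 1 numbered 3375 in the dry seed, 1000 after 12 h, 38 after 24 h, 474 after 36 h, and 462 after 48 h.

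Of the named probe sets 0.376% (5 of 1331) were members, and of all probe sets 0.327% (200 of 61115). The lists below cover named probe sets only, and the 195 members without a name may hold further genes of the same pathways. Of 20 lists of gene words, only the low-oxygen list had a member, the hemoglobin, which was also its single probe set. The glycolysis list matched 5 probe sets and had no member, with 1 highest at 12 HAI. This was GAPN (Ta.511.1.S1_at), for the NADP-dependent glyceraldehyde-3-phosphate dehydrogenase that makes NADPH, with a score of 1.63 and means of 345, 3385, 600.4, 591 and 1079. Of these 5 probe sets, 3 belong to D-3-phosphoglycerate dehydrogenase of serine synthesis, whose words matched the list. The signalling list matched 10 and had no member, and its 2 probe sets highest at 12 HAI were both for the EF-hand calcium-binding protein CCD1 (LOC542847), the better scoring of which had means of 1892, 7196, 2044, 2117 and 1276 and a score of 1.76. Heat shock proteins (4 probe sets) had no member and were highest in the dry seed. The lists for ribosome and photosynthesis matched no probe set, so nothing is said of those genes.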

How the data were processed

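Total RNA of whole seeds was hybridized to 15 arrays. Per the labels and methods, the authors made the deposited intensity values with MAS 5.0, on a linear scale, with each array scaled to nearly the same trimmed mean (about 500.1), which fixes the average and hides changes of total message. Control probe sets (111 AFFX and 64 RPTR) were left out. Stage means of log2(intensity + 16) were fitted with limma 3.58.1 in R 4.3.3 (5 stage means, eBayes, Benjamini-Hochberg), tested on simulated data. Arrays within a stage correlated at 0.93 to 0.97, and the median residual SD was 0.449 in log2. Their number limits the precision. Named were members with a name, the 5 highest scores, the 3 probe sets on either side of the limit and control probe sets reaching it (none did). Names came from the probe annotation, RefSeq gene tables and accessions with a rice match (expect at most 1e-10). A match of gene names by expression values was tried and not used. Sequences were not used here. Members, lists and tests were chosen with earlier results of these data known. Alternatives changed the value added, scaling, trend, dim filter, replicate block and single arrays.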

Additional observations from a re-analysis of the deposited data

Results flagged for a closer look

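The control probe sets for sucrose synthase, which splits sucrose into UDP-glucose and fructose, lay outside the comparisons because control probe sets were left out, and they also had their highest mean at 12 HAI. None reached the score of the 200th member, and they were picked after their values were seen. The 3' probe set scored 1.00, with means of 1186, 14839, 7386, 2721 and 2335 at 0, 12, 24, 36 and 48 HAI. The middle probe set scored 1.56, with means of 139, 1861, 619, 227 and 104. The 5' probe set scored 1.92, just under the 200th member, with means of 11.4, 261, 58.0, 33.9 and 31.8. A further probe set named for sucrose synthase, Ta.93.1.S1_at, had means of 85.9, 74.9, 129, 112 and 163 and no peak at 12 HAI.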

How the results depend on the processing

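At 24 against 0 HAI, 124 members (62.0%) were called higher with arrays scaled to hybridization controls and 165 (82.5%) with poly-A controls. Of all probe sets, 27.1% and 45.0% were. Called lower were 9 members (4.5%) with array medians set equal, 3 (1.5%) with hybridization controls and 1 (0.5%) with poly-A controls. Of all probe sets, 11.6%, 5.13% and 1.82% were called lower. At 48 against 24 HAI the members called higher were 3, 2 and 3 (1.5%, 1.0% and 1.5%) under these scalings. Of all probe sets, 5.02%, 2.34% and 4.11% were. The members called higher were 4 with 1 added before the log. With dim probe sets left out they were 11 (5.5%), and 8.36% of all. Leaving out single arrays gave 2 to 11: 11 without 0 HAI replicate 1, 4 without 36 HAI replicate 2, 3 without 12 HAI replicate 1, 2 or 3, 24 HAI replicate 3 or 48 HAI replicate 1, and 2 without 24 HAI replicate 1 or 48 HAI replicate 2 or 3. At 48 against 0 HAI, 136 members were higher with poly-A controls, and 32, 19 and 9 lower with medians, hybridization controls and poly-A controls. Of all probe sets, 39.9% were higher with poly-A controls, and 13.9%, 8.58% and 3.68% lower in the same order. The median change of all probe sets at 24 against 0 HAI was -0.30, 0.08, 0.30 and 0.84 under the main scaling, medians, hybridization controls and poly-A controls, and that of members 0.36, 0.74, 1.16 and 1.80. Of the 200, 132 were kept with poly-A controls. Ta.4969.3.S1_x_at at 48 against 0 HAI was -0.95 and became 0.50 with poly-A controls (limma adjusted p = 0.053). The counts of members lower at 48 against 24 HAI were 46 to 82 under all alternatives. The 82 (41.0%) came with poly-A controls, where 12.7% of all probe sets were lower. With dim probe sets left out, 38.5% of members and 18.7% of all were higher at 24 against 0 HAI, and 30.5% and 9.29% lower at 48 against 24 HAI. Replicate numbers did not pair the arrays (same-number correlations -0.030 to 0.051 over 30 pairs), and the replicate block gave 73 and 31, 5 and 58, and 53 and 57 members higher and lower in the 3 comparisons. Calls of Ta.24155.1.S1_x_at were lost in 2 settings at 24 against 0 HAI and 6 at 48 against 24 HAI, that of Ta.19858.1.A1_at at 48 against 0 HAI in 12, that of Ta.4678.2.S1_at at 48 against 0 HAI with poly-A controls and that of Ta.4969.3.S1_x_at with hybridization controls (-0.26, limma adjusted p = 0.519). When the 200 were chosen on 2 replicates, 184 to 187 of them were members. Their median score in the left-out arrays was 2.41 to 2.48, and the lowest score was -0.80. These values are a description and not a test of the peak. The causes were not tested. No depth applies to arrays.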
